A study of Mus musculus with 12 samples.

Results

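The early response of naive CD4+ T cells to interleukin-7 (IL-7) was taken from 4 of the 12 arrays of the study: 2 arrays of cells at 0 h and 2 arrays of cells given IL-7 for 6 h. Members were all probes with a detection p-value under 0.01 on at least 2 of these 4 arrays, which held for 15679 of 45281 probes. With 1 probe kept per gene symbol, and probes without a single symbol kept on their own, 10789 features were tested, 8280 of them with a symbol. Of the features tested, 9537 were detected on all 4 arrays, 165 on no 0 h array and 179 on no 6 h array.

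Both groups were splenic CD4+ T cells of mice 2 months old. The labels give the strain as B6.Cg-Tg(TcraTcrb)425Cbn/J, which carries a transgenic T cell receptor, while the design text names C57BL/6 mice. The labels give no 6 h sample without IL-7, so IL-7 and 6 h of culture cannot be told apart. A further 2 arrays of the same cells after 24 h of IL-7 entered the fit to estimate the spread. No label states if the replicates were separate mice or cultures, so the p-values cover the spread of these arrays alone, and that spread may be technical. IL-7 is a cytokine of lymphoid stroma that naive T cells need to survive. Its receptor pairs the IL-7 receptor alpha chain with the common gamma chain and signals through JAK1 and JAK3, which activate the transcription factor STAT5. STAT5 is known to induce BCL2, which blocks apoptosis, and CISH and the SOCS proteins, which dampen cytokine signalling.

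The arrays had mean signals of 245.2 and 197.6 at 0 h and 157.6 and 191.6 at 6 h (replicates 1 and 2, the order used throughout), and detected 33.3% to 34.5% of all probes. The 2 arrays at 0 h correlated at 0.993 over the features tested and those at 6 h at 0.961. The arrays at 6 h differed by a factor of 2 or more for 442 features, of which 355 were higher on replicate 1, against 24 features at 0 h. The pan T cell transcript Cd3e was bright on every array, with signals of 8155.3, 6430.4, 4621.7 and 5613.8. Cd4 was detected on all 4 arrays at 298.8, 223.5, 145.1 and 187.7, and Cd5 on none. Of 13 T cell markers tested, 11 were lower at 6 h, with a median log2 fold change of -0.33. At a limma adjusted p under 0.05, Lat, Thy1 and Ptprcap fell and none rose, beside 5.74% and 4.46% of all features. Cd8b1, a chain of the CD8 co-receptor, was also detected on all 4, at 2804.3, 1779.8, 1017.6 and 1100.9, while neither probe of Cd8a was detected.

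The array of 6 h replicate 1 stood apart in transcripts of other cells. Of 15 B cell markers on the array, 11 were detected there, against 5 on 6 h replicate 2 and 6 on at least 1 of the 0 h arrays, while Ms4a1, Pax5, Cr2 and Vpreb3 were detected on none of the 4. The 6 B cell markers that passed the detection filter summed to a signal of 10550.4 on 6 h replicate 1, 303.5 on 6 h replicate 2 and 539.5 and 653.1 at 0 h. Of 22 markers of macrophages, monocytes and dendritic cells, 19 were detected on 6 h replicate 1, 5 on 6 h replicate 2 and 13 on at least 1 of the 0 h arrays. The 13 that passed the filter summed to 10937.1, 1472.2 and, at 0 h, 2560.5 and 1931.0. Itgam, Itgax and Cybb were detected on none of the 4 arrays. The erythroid marker Hba-a1 was also highest on 6 h replicate 1, at 473.9, 349.1, 1404.6 and 155.5, while Alas2, Car1 and Hbb-b2 were detected on none of the 4. Of 6 platelet markers, 3 were detected on 6 h replicate 1, 0 on 6 h replicate 2 and 1 on at least 1 of the 0 h arrays. Xist, the RNA that silences an X chromosome in female cells, reached 747.6 on 6 h replicate 1 and was not detected on the other 3, while the Y-linked Kdm5d was lowest there, at 52.8 against 347.4, 210.7 and 159.9. Counts over the main gene groups below, and genes whose call differs, are therefore also given without that array. In that fit the single remaining 6 h array is assumed to vary like the arrays at 0 h and 24 h.

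**Figure D1:**
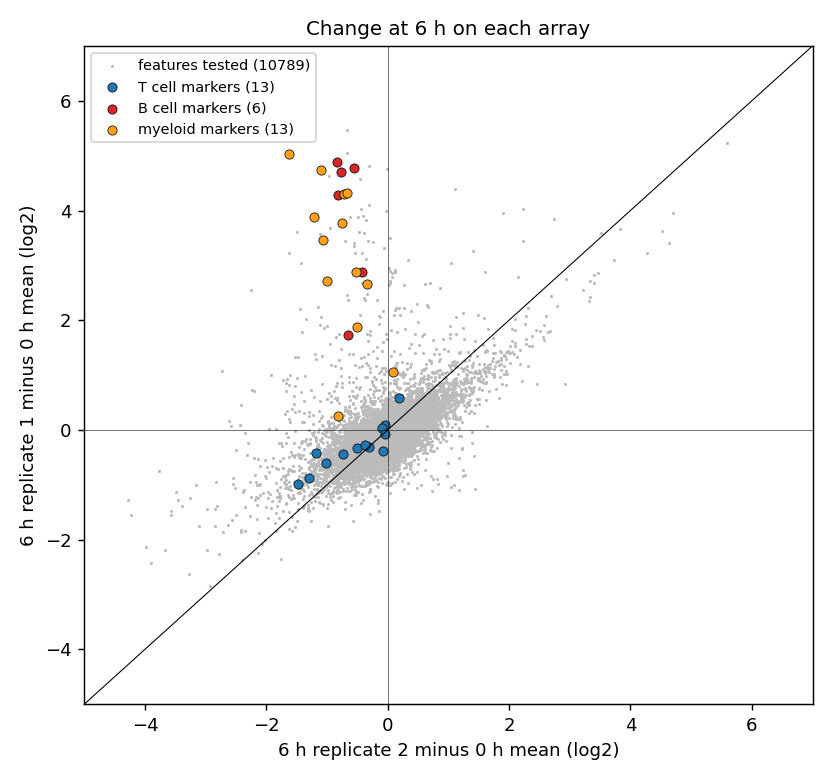
Change of each of 10789 features on 6 h replicate 1 (vertical axis) and 6 h replicate 2 (horizontal axis), each as log2 level minus the 0 h mean. The line marks equal change. B cell (6) and myeloid (13) markers lie above it, high on replicate 1, while the 13 T cell markers lie near it.

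The question of the comparison was which transcripts had changed within 6 h. At a Benjamini-Hochberg adjusted p under 0.05 in limma, 1100 features (10.2%) were called: 481 rose (4.46%) and 619 fell (5.74%). Of the called features 441 changed by a factor of 2 or more, 230 upwards and 211 downwards. None of the 1100 had overlapping groups, and 58.4% of all features tested had none either (25.6% higher and 32.8% lower at 6 h). The median log2 fold change of all features was -0.04. Without 6 h replicate 1 the fit called 2667 features (24.7%), of which 1212 rose (11.2%) and 1455 fell (13.5%), and 1088 of the 1100 were among them in the same direction. Without 6 h replicate 2 it called 1739 (16.1%, with 6.93% rising and 9.19% falling), and 997 of the 1100 were called in both of these fits. The count rested on both 0 h arrays and on the 24 h arrays: it was 3 and 4 without 0 h replicate 1 or 2, 182 and 147 without 24 h replicate 1 or 2, and 180 (1.67%) when the 24 h arrays were dropped (0.862% rising and 0.806% falling). Scaling to the 75th percentile in place of quantile normalization called 709 rises and 483 falls, which turns the balance of rises and falls around.

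**Figure D2:**
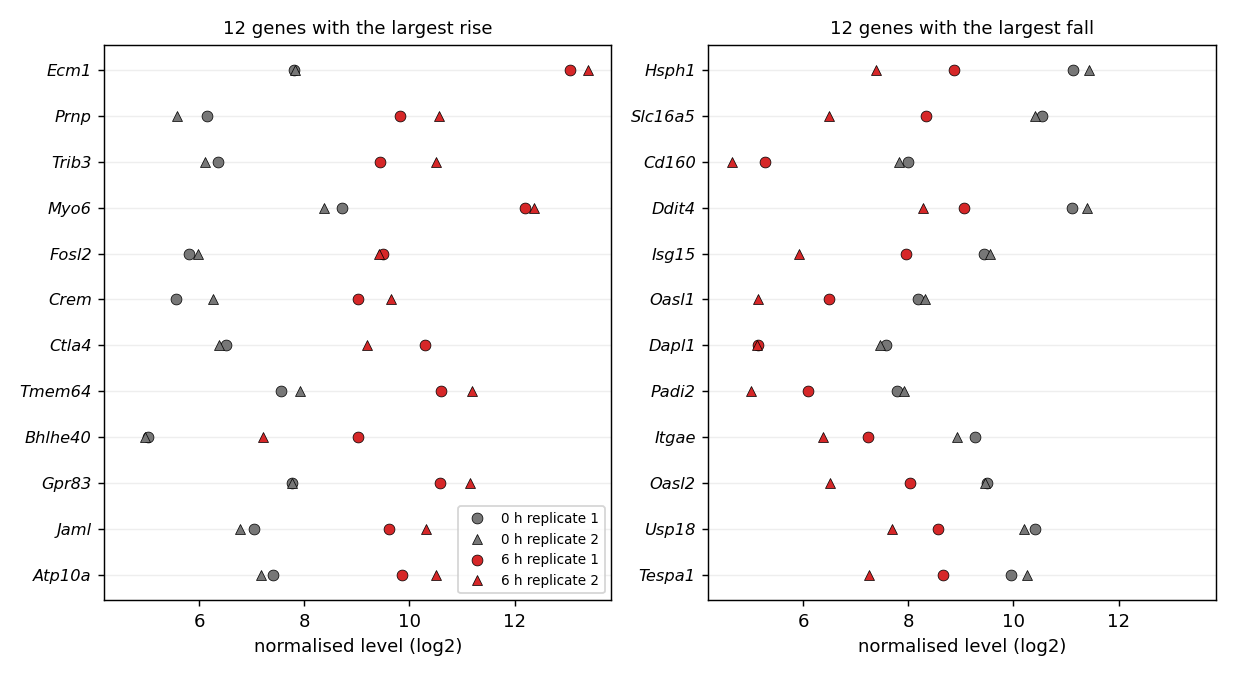
Normalised log2 level on each 0 h array (grey) and 6 h array (red) for the 12 genes with the largest rise and the 12 with the largest fall, with circles for replicate 1 and triangles for replicate 2. By the rule that chose them, both 6 h arrays lie beyond both 0 h arrays in each of the 24 genes.

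The largest rise was that of Ecm1, which encodes a secreted matrix glycoprotein. Its deposited signals were 260.2 and 199.5 at 0 h and 6951.4 and 9960.7 at 6 h. It rose 42.6-fold, a log2 change of 5.41 ± 0.18 (SE, 2 arrays at each time, limma adjusted p = 0.000637), and its second probe rose by 4.91. Myo6, a myosin that walks towards the minus end of actin filaments, had signals of 512.5, 301.7, 3725.6 and 4912.0 and rose by 3.74 ± 0.16. Fosl2, a FOS-related AP-1 subunit, had signals of 48.8, 43.9, 544.3 and 644.2 and rose by 3.56 ± 0.14. Ecm1, Myo6 and Fosl2 were the only features called whichever of the 6 arrays was left out.

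Several of the largest rises were higher on 6 h replicate 2, the array without the marker excess. Prnp, the cellular prion protein gene, had signals of 67.2, 29.0, 680.2 and 1426.5 and rose by 4.33 ± 0.29. Trib3, a pseudokinase induced by stress, had signals of 80.9, 49.5, 527.3 and 1377.4 and rose by 3.75 ± 0.33, with all 3 of its probes higher at 6 h. Tmem64, Jaml and Atp10a rose by 3.16, 3.04 and 2.89, with log2 changes of 3.45, 3.41 and 3.22 without 6 h replicate 1. Jaml encodes a junctional adhesion molecule of leukocytes and Atp10a a phospholipid flippase.

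Ctla4 and Bhlhe40 were higher on 6 h replicate 1. Ctla4, an inhibitory receptor, had signals of 93.7, 62.8, 967.0 and 550.8 and rose by 3.30 ± 0.34, or 2.75 without that array. Bhlhe40, a repressor of the basic helix-loop-helix family, had signals of 19.5, 14.2, 386.6 and 131.4 and rose by 3.13 ± 0.54, or 2.26 without it, though it was detected on only 1 of the 0 h arrays. The rule that named both genes required groups without overlap and a call in the fit without that array. Neither property is therefore separate evidence for these rises.

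Some transcripts were detected at 6 h and on no 0 h array. The filter admitted such a feature only if both 6 h arrays detected it, so its detection at 6 h was set by the rule. The reverse held for genes named below as undetected at 6 h. The detection pattern is therefore not separate evidence of a change. Adamtsl4, an extracellular matrix protein gene, had signals of 10.3 and 14.8 at 0 h, not detected, and 218.5 and 662.4 at 6 h, which made it at least 13.99-fold higher. The bounds set the lowest detected value of each array in place of the undetected level. The RIKEN transcript 8430426J06Rik was at least 10.5-fold higher, the receptor gene Lilr4b 6.14-fold, the nutrient-sensing GTPase gene Rragd 3.64-fold and the cytoskeletal linker gene Dst 3.10-fold. Ccl9, a chemokine gene, was at least 2.76-fold higher, at 13, 10.1, 62.7 and 68.6.

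Gene groups were read against the shares of all features called (4.46% rising and 5.74% falling with all arrays, 11.2% and 13.5% without 6 h replicate 1). At an unadjusted p under 0.05 stood 30% of all features, 12.9% higher and 17% lower. Targets of STAT5 were mostly higher. Of the 21 STAT5 targets on the list that could be tested, 10 rose and 1 fell while 10 did not pass, with a median log2 fold change of 0.70, and 11 rose and 3 fell without 6 h replicate 1, with a median of 0.62. Bcl2 had signals of 623.1, 362.1, 1234.5 and 1732.4 and rose by 1.94 ± 0.21 (adjusted p = 0.00922), and each of its 6 probes rose, by 1.22 to 2.77. Both 6 h arrays lay above both 0 h arrays, as in every feature called as rising. The feedback inhibitor Cish had signals of 531.5, 406.4, 976.1 and 1382.5 and rose by 1.65 ± 0.17. Socs2, a second inhibitor of cytokine signalling, was detected on no 0 h array and was at least 3.78-fold higher at 6 h, at 12.8, 11, 77.4 and 115.1. Socs1 and Socs3, inhibitors of the same family, stood at 0.48 and -0.55 and did not pass.

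Further STAT5 targets that rose were a cytokine gene, a receptor and kinases. Lta, the gene of lymphotoxin alpha, had signals of 178.8, 142.9, 426.0 and 972.4 and rose by 2.24 ± 0.27. Tnfrsf4, the costimulatory receptor OX40, rose by 2.06 ± 0.13, the interleukin-4 receptor alpha gene Il4ra by 1.73 ± 0.22 and the interleukin-2 receptor alpha gene Il2ra by 1.15 ± 0.20. The survival kinases Pim1 and Pim2 rose by 1.96 ± 0.14 and 1.11 ± 0.21, with the second Pim1 probe at -0.34. Myc, a driver of growth, had low signals of 31.8, 33.9, 50.1 and 76.4 and rose by 0.88 ± 0.16. The member that fell was Ccnd2, a D-type cyclin, at 3060.9, 2055.6, 902.5 and 1277.5 and -0.82 ± 0.14, with 1 of its 3 probes at 0.32.

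The promoters of Cish and Lta are shown because each held 2 copies of the STAT5 motif TTCNNNGAA, a palindrome searched on both strands and set in capitals. Sequences are from RefSeq (GRCm38.p6), read 5′ to 3′ from 170 bases before the start site through 30 bases from it.
Cish, chr9:107296489-107296688, plus strand: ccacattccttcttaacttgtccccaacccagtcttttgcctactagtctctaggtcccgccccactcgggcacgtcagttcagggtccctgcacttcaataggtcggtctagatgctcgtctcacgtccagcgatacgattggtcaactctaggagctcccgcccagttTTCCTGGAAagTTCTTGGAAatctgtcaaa
Lta, chr17:35205322-35205521, minus strand: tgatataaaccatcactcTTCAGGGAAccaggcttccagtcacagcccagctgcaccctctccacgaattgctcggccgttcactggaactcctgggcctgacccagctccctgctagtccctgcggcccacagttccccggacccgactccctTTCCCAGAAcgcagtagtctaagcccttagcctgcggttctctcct
In Cish the motifs begin 0 and 11 bases past the first transcribed base, and in Lta 152 and 16 bases before it. Of the 8 STAT5 targets that rose and have a promoter in the table, 2 held the motif in their 300 bases, and those are shown. Of all 17 measured targets with a promoter, 4 held it (Bcl6, Cish, Lta and Socs3). It was present in 9.55% of all 27025 genes with a promoter in the table, in 8.33% of those tested, in 9.9% of those that rose and in 10.3% of those that fell. A match is a run of letters and was not tested as a binding site.

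Of 8 measured genes of the receptor, its kinases and their partners, none rose and 1 fell in limma, and at an unadjusted p under 0.05 1 was higher and 2 were lower. These counts are near the background shares, and without 6 h replicate 1, 1 rose and 2 fell. The member that fell was Jak3, the kinase bound to the common gamma chain, at 212.4, 187.1, 76.4 and 89.1 (-0.86 ± 0.15), and Jak1, its partner on the alpha chain, stood at -0.34 ± 0.14 and did not pass. Il7r had signals of 2124.0, 1697.4, 1474.2 and 1917.0 and a log2 change of 0.21 ± 0.12 (adjusted p = 0.31), with 2 of its 5 probes in that direction. Stat5a stood at 0.31 and Stat3 at -0.22, and neither passed. In the BCL2 family, 2 of 14 measured genes rose, Bcl2 and the pro-apoptotic Bcl2l11, which had signals of 452.2, 403.7, 787.4 and 1598.8 and rose by 1.73 ± 0.24. None of the 14 fell (4 higher and 1 lower at an unadjusted p under 0.05). Without 6 h replicate 1, 3 rose and 2 fell, and the median went from 0.22 to -0.07. The anti-apoptotic Mcl1 (0.45) and Bcl2l1 (0.30) did not pass with all arrays, and Mcl1 rose by 0.62 without that array.

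Of 21 measured genes of common gamma-chain and related receptors, 4 rose and 1 fell, with a median of 0.00 (10 higher and 11 lower), and 7 rose and 6 fell without 6 h replicate 1. Il10ra, the interleukin-10 receptor alpha chain, had signals of 72.7, 44.0, 270.9 and 417.4 and rose by 2.57 ± 0.16. Ifngr1, the interferon-gamma receptor alpha chain, had signals of 744.1, 905.6, 1898.4 and 4165.2 and rose by 2.12 ± 0.34. Both 6 h arrays lay above both 0 h arrays in these 2 genes, as in every feature called as rising. Il21r, the interleukin-21 receptor, fell by 0.70 on the log2 scale (adjusted p = 0.0498).

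Of 21 measured TNF receptors and ligands, 5 rose and 2 fell, with a median of 0.41, and 10 rose and 3 fell without 6 h replicate 1. Tnfrsf18, the costimulatory receptor GITR, had signals of 492.1, 491.4, 1936.3 and 4393.4 and rose by 2.88 ± 0.30. Tnfrsf25 and Tnfrsf13b rose by 0.86 and 0.70, while Cd27, a receptor of resting T cells, fell by 0.80 and the ligand gene Tnfsf10 (TRAIL) fell by 0.82. Of 18 measured costimulatory and inhibitory receptors, 4 rose and 3 fell, and 6 rose and 8 fell without 6 h replicate 1. Icos rose by 1.59 ± 0.30 and Cd200 by 0.98, and Cd84 rose by 0.75 although 2 of its 3 probes were at -0.02 and -0.08. Cd160 fell by 2.95 ± 0.24, from 299.7 and 197.5 to 18.1 and 8.1, with detection on only 1 of the 6 h arrays, Cd96 fell by 0.91 and Vsir (VISTA) fell by 0.71.

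Of the 43 gene lists, chosen with earlier results known and partly sharing genes, that of genes known from regulatory T cells had the highest median. Of 16 measured, 9 rose and 2 fell, with a median of 1.37, and 10 rose and 2 fell without 6 h replicate 1, with a median of 1.63. Foxp3, the factor that defines these cells, had signals of 856.1, 585.3, 457.1 and 550.0 and a log2 change of -0.12 ± 0.13, which did not pass. Gpr83, a receptor gene of regulatory T cells, had signals of 251.7, 189.6, 1191.6 and 2112.7 and rose by 3.11 ± 0.22. Swap70, an actin-binding signalling protein, rose by 2.10 ± 0.18 and Capg, an actin-capping protein, by 1.58 ± 0.20. Itgae, the integrin alpha-E chain (CD103), fell by 2.29 ± 0.35 with all 5 of its probes lower, at 765.9, 453.9, 103.8 and 66.9, and the homing receptor gene Gpr15, undetected at 6 h, was at least 1.31-fold lower. Because RNA came from whole cell preparations, a change in the number of cells of a type cannot be told apart from a change in RNA per cell.

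**Figure D3:**
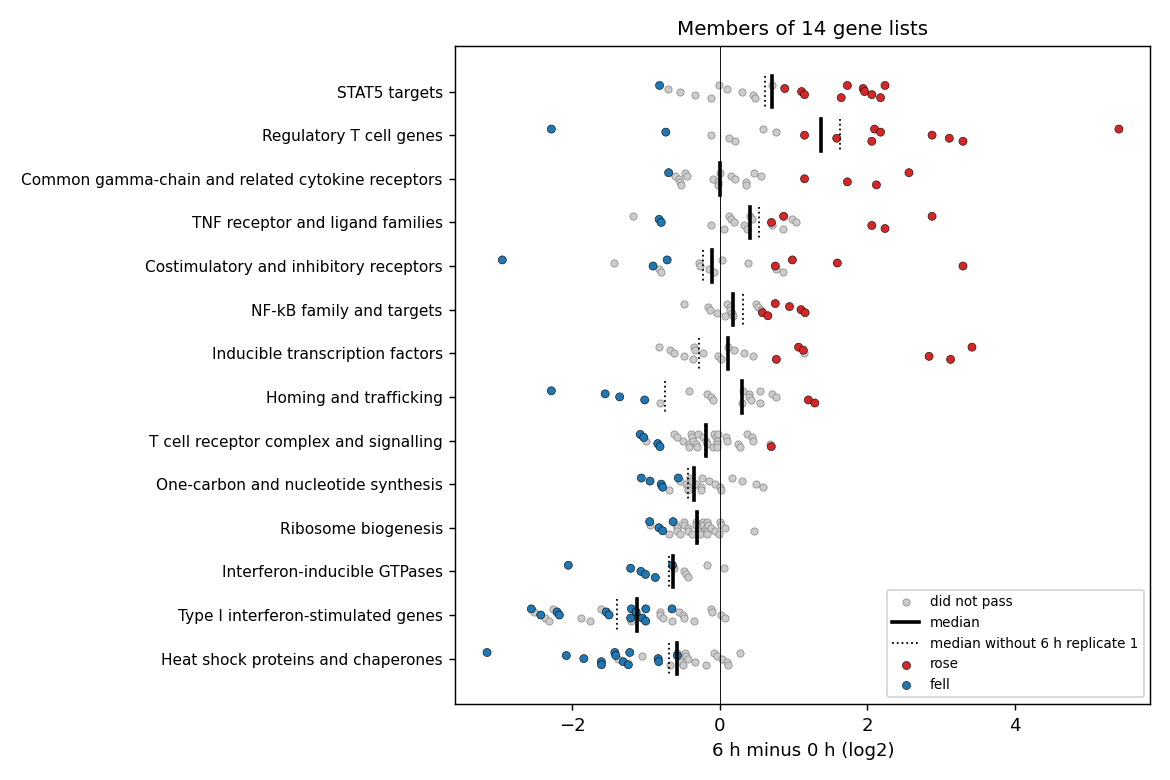
Log2 change at 6 h of each measured member of 14 gene lists (points; red rose, blue fell, grey did not pass), with the list median over all arrays (solid line) and without 6 h replicate 1 (dotted line). The medians of inducible transcription factors and of homing genes lie above 0 with all arrays and below 0 without that array.

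Inducible transcription factors split by array. Of 21 measured, 6 rose and none fell (7 higher and 2 lower at an unadjusted p under 0.05), with a median of 0.11, but 6 rose and 7 fell without 6 h replicate 1, with a median of -0.28. Crem, a factor of the cyclic AMP response, had signals of 37.9, 56.5, 384.8 and 746.6 and rose by 3.42 ± 0.31. Irf4, a factor induced on T cell activation, had signals of 25.6, 18.9, 291.6 and 154.2 and rose by 2.84 ± 0.37, or 2.26 without 6 h replicate 1. Hif1a, the oxygen-regulated subunit of HIF-1, rose by 1.07 ± 0.13, the orphan receptor gene Nr4a2 (detected on 1 of the 0 h arrays) by 1.13 ± 0.24 and Rora by 0.77 ± 0.13.

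The early response genes Egr1, Junb and Fos were picked out after their values were seen. By deposited signal, before normalization between arrays, they were within or above the 0 h range on 6 h replicate 1. On 6 h replicate 2 they were below it. Egr1 had signals of 2050.5, 1520.4, 2718.6 and 219.8, Junb of 2999.1, 2614.9, 3227.0 and 508.0, and Fos of 2452.5, 1179.9, 2117.3 and 465.1. None of these 3 passed with all arrays (log2 changes of -0.83, -0.75 and -0.40), and without 6 h replicate 1 they fell by 2.73, 2.20 and 1.63. The B cell and myeloid markers given above were high on the same array as these genes, and their part in the difference was not tested. Of 11 measured AP-1 genes, Fosl2 and Mafg (0.54) rose and none fell (3 higher and 0 lower at an unadjusted p under 0.05), while without that array 2 rose and 5 fell.

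Of 19 measured NF-kB factors and targets, 6 rose and none fell (8 higher and 0 lower at an unadjusted p under 0.05), with a median of 0.18, and 7 rose and 3 fell without 6 h replicate 1. Relb, an NF-kB subunit, had signals of 128.3, 123.0, 216.1 and 272.0 and rose by 1.16 ± 0.19. Rel, the c-Rel subunit, was detected on no 0 h array and was at least 1.84-fold higher. The inhibitor genes Nfkbib and Nfkbiz rose by 0.94 and 0.65 and the adaptor Traf1 by 0.75. Of the 19 genes, 13 were highest of all 6 arrays on 6 h replicate 1, the array with the marker excess, whose part was not tested.

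Several regulators of other pathways also rose. Rgs1, which shortens G protein signals, had signals of 900.9, 478.3, 3325.9 and 2462.1 and rose by 2.47 ± 0.26. Klf9, a Krüppel-like factor induced by glucocorticoids, had signals of 133.0, 81.3, 390.9 and 527.4 and rose by 2.27 ± 0.14. Ndrg1, a hypoxia-response gene, rose by 2.21 ± 0.27 and Mxd1, a MYC antagonist, by 1.40 ± 0.20. Of 11 measured hypoxia-response genes 2 rose and 2 fell, with a median of 0.01, beside 4.46% and 5.74% of all features. Klf2, a factor of T cell quiescence and exit from lymphoid tissue, had signals of 4036.0, 2631.7, 4979.4 and 6512.1 and rose by 1.20 ± 0.15, and Klf3 rose by 1.26 ± 0.20.

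Antiviral genes stimulated by type I interferon gave 13 falls and no rise among 34 measured (28 lower and 0 higher at an unadjusted p under 0.05), with a median of -1.13, and none rose and 27 fell without 6 h replicate 1, with a median of -1.40. Isg15, a ubiquitin-like modifier, had signals of 869.4, 723.1, 177.6 and 44.6 and fell by 2.56 ± 0.59 (adjusted p = 0.0459). Oasl1 had signals of 344.2, 288.4, 57.6 and 19.2 and fell by 2.43 ± 0.40, and Usp18, which removes ISG15 and restrains interferon signalling, fell by 2.18 ± 0.30 from 1701.9 and 1143.0 to 276.2 and 187.1. In each of these genes 6 h replicate 1 lay between the 0 h arrays and 6 h replicate 2. Members that did not pass with all arrays followed the same order: Ifit3 had signals of 1540.2, 1117.5, 362.1 and 91.5 (-2.37 ± 0.63, adjusted p = 0.065), and Irf7, the master factor of type I interferon production, 372.3, 257.5, 104.8 and 35.6 (-1.77 ± 0.46), and both fell without 6 h replicate 1.

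Of 12 measured interferon-inducible GTPases and linked genes, none rose and 6 fell (10 lower and 0 higher at an unadjusted p under 0.05), with a median of -0.63, and 8 fell without 6 h replicate 1. Gbp2, a guanylate-binding protein that attacks the vacuoles of intracellular pathogens, had signals of 2202.7, 1797.0, 699.4 and 800.9 and fell by 1.01 ± 0.12. Tgtp1, which has a near-identical copy that its probe may also read, fell by 2.06 ± 0.22, and Irf1, an activator of these genes, fell by 0.88 ± 0.15. Rtp4 (detected on 1 of the 6 h arrays) and Samd9l, further interferon-stimulated genes, fell by 1.50 ± 0.16 and 1.20 ± 0.16. The immunoproteasome subunits Psmb9 and Psmb10 fell by 0.61 and 1.10 and were the only called genes among 33 measured proteasome genes, of which 4 fell without 6 h replicate 1.

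Promoters of Isg15 and Gbp2 are shown because they held the core of the interferon-stimulated response element, GAAANNGAAA, searched on both strands and set in capitals.
Isg15, chr4:156200789-156200988, minus strand: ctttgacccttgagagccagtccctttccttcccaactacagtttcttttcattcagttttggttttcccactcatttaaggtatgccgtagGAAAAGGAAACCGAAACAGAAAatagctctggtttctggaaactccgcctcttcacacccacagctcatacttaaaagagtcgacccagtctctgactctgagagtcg
Gbp2, chr3:142620493-142620692, plus strand: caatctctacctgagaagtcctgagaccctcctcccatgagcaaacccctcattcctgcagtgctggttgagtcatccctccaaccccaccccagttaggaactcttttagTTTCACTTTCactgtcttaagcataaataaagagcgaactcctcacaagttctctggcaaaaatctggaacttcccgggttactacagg
Isg15 held 3 overlapping copies, beginning 78, 72 and 66 bases before the start site, and Gbp2 held 1 on the opposite strand, 59 bases before it. The core was present in 4 of 10 interferon-stimulated genes that fell and have a promoter in the table (Ddx58, Eif2ak2, Isg15, Oas3) and in 3 of 5 of the GTPase group that fell (Gbp2, Gbp7, Tgtp1). It was present in 3.99% of all genes with a promoter, 3.92% of those tested, 7.27% of those that fell and 3.19% of those that rose. Whether or not they were called, the same core occurred in 10 of the 24 measured interferon-stimulated genes with a promoter. In the GTPase group it occurred in 8 of the 10 measured genes with a promoter.

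Of 31 measured heat shock protein and chaperone genes, none rose and 13 fell (21 lower and 0 higher at an unadjusted p under 0.05), with a median of -0.59, and none rose and 20 fell without 6 h replicate 1. Hsph1, an HSP110 nucleotide exchange factor, had signals of 2857.2, 2793.8, 342.7 and 148.4 and fell by 3.16 ± 0.45. Hsp90aa1, the inducible HSP90, had signals of 2004.0, 1720.5, 340.8 and 436.1 and fell by 1.85 ± 0.14. Dnajb1, an HSP40 co-chaperone, had signals of 7042.8, 4911.0, 1411.2 and 1468.6 and fell by 1.61 ± 0.15. In these 3 genes both 6 h arrays lay far below both 0 h arrays, and they lay below them in every feature called as falling. The inducible HSP70 gene Hspa1b went undetected at 6 h and was at least 3.16-fold lower, and Hspa1a (detected on 1 of the 6 h arrays) fell by 1.61 ± 0.20, though these 2 genes are near-identical copies whose probes may read both. The mitochondrial chaperonin pair Hspd1 and Hspe1 fell by 1.24 ± 0.15 and 1.31 ± 0.15, and the HSP90 partners Stip1, Ahsa1 and Chordc1 fell by 1.41, 1.22 and 1.43.

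The Hspe1 promoter is shown because it held 2 overlapping copies of the heat shock element of 3 units, GAANNTTCNNGAA, searched on both strands and set in capitals.
Hspe1, chr1:55087978-55088177, plus strand: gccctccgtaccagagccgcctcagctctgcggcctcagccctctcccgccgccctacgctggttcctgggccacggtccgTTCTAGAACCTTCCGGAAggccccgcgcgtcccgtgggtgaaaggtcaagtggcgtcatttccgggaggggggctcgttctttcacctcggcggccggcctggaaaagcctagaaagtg
The copies, 1 on each strand, begin 89 and 84 bases before the start site. The element was present in 4 of 11 chaperone genes that fell and have a promoter in the table (Chordc1, Hspd1, Hspe1, Hsph1). It was present in 0.662% of all genes with a promoter, in 0.527% of those tested, in 1.75% of those that fell and in none of the 313 that rose. Hspd1 and Hspe1 lie head to head and share their promoter region.

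Ddit4, which restrains mTORC1, had signals of 2849.4, 2712.7, 400.0 and 290.0 and fell by 2.59 ± 0.27. It is also a target of glucocorticoids, a group of which 1 of 17 measured genes rose (Klf9) and 1 fell with all arrays, and 1 rose and 8 fell without 6 h replicate 1. Slc16a5, a monocarboxylate transporter gene, had signals of 1878.3, 1326.6, 235.6 and 73.5 and fell by 3.06 ± 0.54. Dusp2, a phosphatase of MAP kinases, fell by 1.73 ± 0.29 from 2801.4 and 1853.2 to 639.2 and 418.4. Both 6 h arrays were below both 0 h arrays in these genes, as in every feature called as falling. Padi2, a peptidylarginine deiminase detected on 1 of the 6 h arrays, and Tespa1, a regulator of T cell receptor signalling, fell by 2.30 ± 0.33 and 2.14 ± 0.43. Lbp, Xcl1, Adam4, Grm6 and Rnf213 were not detected at 6 h and were at least 4.02-fold, 3.35-fold, 2.94-fold, 2.57-fold and 2.33-fold lower.

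Adhesion and homing genes moved both ways. Of 20 measured, 2 rose and 4 fell with a median of 0.31, and 6 rose and 11 fell with a median of -0.74 without 6 h replicate 1. The integrin chains Itgb2 and Itgb7 fell by 1.36 ± 0.21 and 1.02 ± 0.17, beside Itgae, and the chemokine receptor gene Cxcr6 went undetected at 6 h and was at least 1.81-fold lower. P2ry14, a receptor for UDP-sugars, rose by 1.29 ± 0.27. Cd69, which holds T cells in tissue, had signals of 3870.6, 2454.8, 3230.9 and 1436.8 and did not pass with all arrays (-0.12 ± 0.44), but fell by 0.83 without 6 h replicate 1. Ccr7 and S1pr1, which guide T cells into and out of lymph nodes, stood at 0.54 and 0.70 and did not pass.

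Of 7 measured markers of natural killer and cytotoxic cells, 4 fell (Cd160, Nkg7, Klra3 and Klrd1) and none rose (7 lower and 0 higher at an unadjusted p under 0.05). Their summed signal, not normalised between arrays, was 5884.5 and 3975.7 at 0 h and 1814.1 and 2394.6 at 6 h. That of the T cell markers was also lower at 6 h, at 61042.8, 47929.9, 29439.6 and 32445.8. Nkg7, a granule protein gene, had signals of 1490.2, 1177.0, 275.9 and 468.9 and fell by 1.46 ± 0.18. Cd8b1 stood at -0.68 and did not pass with all arrays, but fell by 0.77 without 6 h replicate 1. All 3 of its probes were lower at 6 h, though not to the same extent. Another bright probe moved little, with log2 levels of 10.635 and 10.565 at 0 h and 10.428 and 10.504 at 6 h. A dimmer probe had signals of 215.2, 147.4, 58.5 and 63.4. These markers moved with Xcl1, Itgae and Cxcr6, which such cells can also express, and their part in those falls was not tested.

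Of 35 measured genes of the T cell receptor and its signalling chain, 1 rose and 4 fell, beside 4.46% and 5.74% of all features, with a median of -0.19, and 4 rose and 11 fell without 6 h replicate 1. Lat, the adaptor that collects signalling proteins at the receptor, had signals of 5949.0, 4293.6, 1917.4 and 1726.6 and fell by 1.08 ± 0.17. Themis and Sit1 fell by 1.03 ± 0.14 and 0.84 ± 0.15, and Sh2d2a rose by 0.70 ± 0.12. Thy1 fell by 0.81 ± 0.17, while its second, dim probe stood at 0.06. That probe split the 6 h arrays, with signals of 62.4, 100.8, 22.1 and 183.0. Of 22 measured genes of the naive state, Klf2, Klf3 and Ets1 rose and Dapl1 and Igfbp4 fell, with a median of 0.15, and 6 rose and 5 fell without 6 h replicate 1. Dapl1 had signals of 217.2, 152.2, 15.4 and 18.7 and fell by 2.38 ± 0.12, and Igfbp4, which binds insulin-like growth factors, fell by 1.91 ± 0.27.

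In the growth and metabolic groups that follow, the called share can be read against the 10.2% of all features. Of 24 measured genes of one-carbon and nucleotide synthesis, none rose and 5 fell (1 higher and 10 lower at an unadjusted p under 0.05), with a median of -0.35, and Mthfd2, a mitochondrial folate enzyme, stood lowest of the 5 (-1.07 ± 0.17). Leaving out 6 h replicate 1 gave 2 rises and 9 falls. Of 34 ribosome biogenesis genes none rose and 4 fell (Utp14a, Grwd1, Bop1 and Ppan), with 1 higher and 15 lower at an unadjusted p under 0.05, and 1 rose and 10 fell without 6 h replicate 1. Of 38 genes of the respiratory chain and citrate cycle none rose and 4 fell (Idh2, Cox7a2, Suclg1 and Cycs), with 0 higher and 7 lower by that measure. Of 20 glycolysis and pentose phosphate genes 1 fell, the lactate dehydrogenase gene Ldha (-0.60 ± 0.14), and 5 fell without 6 h replicate 1. None of 18 measured aminoacyl-tRNA synthetases passed in limma (4 lower and 0 higher at an unadjusted p under 0.05, where 30% of all features stood), with 3 falling without 6 h replicate 1. None of 7 measured Gimap genes passed in limma (2 higher and 0 lower by that measure), with 1 rising in that fit. Odc1, the first enzyme of polyamine synthesis, had signals of 681.8, 446.9, 1096.9 and 918.7 and rose by 1.20 ± 0.20. Of 7 measured polyamine genes 2 rose and 1 fell.

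Stress factors of the endoplasmic reticulum and cell cycle genes were mixed. Xbp1, a factor of the unfolded protein response, had signals of 1173.5, 941.1, 1570.0 and 2507.3 and rose by 1.29 ± 0.16, and the protein disulphide isomerase gene Pdia4 rose by 1.25 ± 0.19, while Ppp1r15b and Sec61b fell by 0.70 and 0.55. Of 28 measured genes of DNA replication and mitosis 3 rose and 1 fell: Hmgb2, Cenpa and Lig1 rose by 1.41, 1.32 and 0.86, and the mitotic kinesin Kif23 fell by 1.27 with 1 of its 3 probes at 0.31. Leaving out 6 h replicate 1 gave 5 rises and 4 falls. Of these 28, 12 were highest on 6 h replicate 1. Cdkn2d, an inhibitor of the G1 kinases, fell by 1.00 ± 0.13. Of 24 measured G1 cyclins, kinases and inhibitors 2 rose and 2 fell, beside 4.46% and 5.74% of all features.

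The level at 24 h was set against that at 6 h in the same fit to see which early changes lasted. In limma 50 features (0.463%) differed, 14 higher (0.13%) and 36 lower (0.334%) at 24 h, and 1833 had an unadjusted p under 0.05. Of the 1100 features called at 6 h, 35 were among them: 28 had risen and then fell, 6 had fallen and then rose, and 1 rose at both steps. Fosl2, at 544.3 and 644.2 at 6 h, was back at 46.0 and 39.6 at 24 h (-3.61 ± 0.14, adjusted p = 0.00128). Gadd45b, a stress-response gene, had signals of 68.1, 65.3, 176.7 and 167.7 and then 15.8 and 7.2, below its 0 h level. It was not detected at 24 h and was at least 6.08-fold lower than at 6 h, as were Irf4, by at least 7.47-fold, and Ramp3, a receptor partner protein, by at least 3.87-fold. Crem and P2ry14 stayed detected and had log2 levels at 24 h minus 6 h of -2.46 and -2.50. Cd69 had not passed at 6 h but fell by 3.70 from 6 h to 24 h, to signals of 242.5 and 131.8. Nkg7, Tnik and Dapl1 rose again by 1.51, 1.07 and 0.94, Grm6 by at least 2.09-fold from an undetected level, and Setbp1 rose further, by 1.07. Ecm1 (0.14), Prnp (-0.33), Trib3 (-0.26) and Myo6 (-0.33) did not pass this comparison. Dropping 6 h replicate 1 raised the count of 50 to 333 and dropping 6 h replicate 2 to 1452, while dropping any of the other 4 arrays in turn left 0 or 1.

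**Figure D4:**
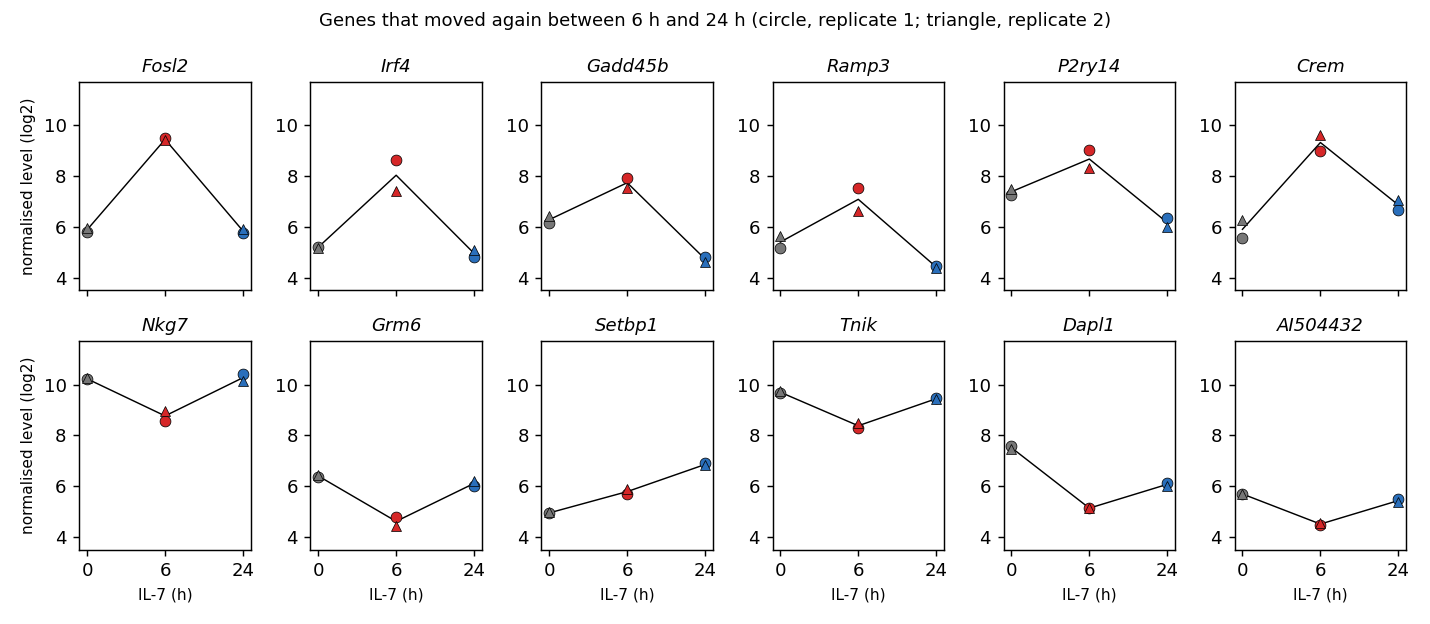
Normalised log2 level on each array at 0 h (grey), 6 h (red) and 24 h (blue) of 12 genes called both at 6 h against 0 h and at 24 h against 6 h, with lines through the means. The genes of the upper row peaked at 6 h, and in the lower row all but Setbp1 were lowest at 6 h.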

How the data were processed

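Total RNA of 6 naive CD4+ T cell samples (IL-7 for 0, 6 or 24 h, 2 arrays each) was read on Illumina mouse BeadChips, all 6 on 1 chip per the labels. The authors deposited 1 intensity per probe and array, on a linear scale without normalization between arrays, and a detection p-value for each. GenomeStudio is named in the submitters' processing notes, with its version not given in the sources used here. A second, scaled table was not used. Symbols came from a probe table: 34885 probes had 1 symbol, 18 several and 10378 none.

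From these files, normexp background correction (offset 16), quantile normalization and the log2 step were run by limma's neqc (limma version 3.58.1, R version 4.3.3). Each symbol was represented by its brightest detected probe. A linear model of the 3 times (lmFit, eBayes, 3 residual degrees of freedom) gave 2-sided p-values, adjusted by Benjamini and Hochberg over 10789 features and called under 0.05. Errors are standard errors of log2 fold changes. The code was tested on simulated data. The number of arrays limits the precision.

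The members, the gene lists and the motifs were chosen with earlier results of these data known, so counts over lists are descriptions, to be read against the share of all features called. Some lists share genes. Promoters were searched over 300 bases in RefSeq's table, without those of 1 chromosome. A bound sets an undetected level to the lowest detected value of its array. Named genes were the 12 largest rises and falls called with and without 6 h replicate 1 (detected at both times, arrays not overlapping), the 6 largest bounds in each direction among genes undetected at 1 time, members of the lists, cell type markers, the 8 largest differences between the 6 h arrays in each direction, and the 6 largest changes in each direction from 6 h to 24 h among genes called at 6 h. Alternatives changed the arrays in the fit, array weights, normalization, background correction, offset, detection filter and probe rule.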

Additional observations from a re-analysis of the deposited data

Results flagged for a closer look

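Early changes whose level at 24 h differed from that at 6 h by the test of that difference in limma were singled out among the genes named above. Of the genes that rose at 6 h, Fosl2 had a log2 level at 24 h minus 6 h of -3.61, Irf4 of -3.08, Gadd45b of -3.01 and Ramp3 of -2.67. P2ry14 stood at -2.50, Crem at -2.46, Lilr4b at -1.73 and Gpr83 at -1.71. The NF-kB subunits Relb and Rel stood at -1.53 and -1.51, Tnfrsf4 at -1.15 and Sh2d2a at -1.01, while Setbp1 rose by a further 1.07. Of the genes that fell at 6 h, Nkg7 rose again by 1.51, Grm6 by 1.50, Tnik by 1.07, Dapl1 by 0.94 and AI504432 by 0.93. Irf4, Gadd45b, Ramp3 and Rel were not detected at 24 h, nor Grm6 and AI504432 at 6 h, so these 6 differences rest on levels below detection.

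A signal outside the features tested was that of Xist, which did not pass the detection filter because it was detected on only 1 of the 4 arrays. Its brightest probe had a deposited signal of 747.6 on 6 h replicate 1 and of -0.7, -0.5 and -3.2 on 0 h replicates 1 and 2 and 6 h replicate 2.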

How the results depend on the processing

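Leaving out 1 array at a time moved the 1100 features called at 6 h between 3 and 2667, and the 50 called from 6 h to 24 h between 0 and 1452. Dropping both 24 h arrays called 180, quantile normalization of those 4 alone 188, and no detection filter 493 of 29453 features. Dropping both 0 h arrays called 1 from 6 h to 24 h. Array weights (798), no background correction (875), an offset of 50 (1247), detection on all 4 arrays (1099), every probe on its own (1541) and the 75th percentile (1192) stayed within 1.5 times of 1100. The array weights were 0.49 for both 6 h arrays, so that setting could not treat 6 h replicate 1 apart from 6 h replicate 2. The replicate block called 753 and, from 6 h to 24 h, 1. Whether equal replicate numbers pair the samples could not be told. Deviations of replicate 1 from the group means correlated at 0.059 between 0 h and 6 h. They correlated at 0.152 between 0 h and 24 h and at -0.18 between 6 h and 24 h. The deviations at 6 h include the marker excess on replicate 1, so these values cannot exclude that equal numbers share a mouse or culture. With the 24 h numbers exchanged, an alternative chosen after seeing the data, the block called 3. Of 168 named genes called at 6 h, none changed direction under the alternatives run for 6 h against 0 h (142 could be tested with detection on all 4 arrays). The groups overlapped in none of these genes, so leaving out an array could hardly change a direction. Some of them were also chosen because they were called without 6 h replicate 1. Without 6 h replicate 1, 167 were called, without 6 h replicate 2 158, and without 0 h replicate 1 or 2 3 in each case. The cause of these shifts was not tested. With 2 arrays per time, the 24 h arrays supply part of the estimated spread, and dim transcripts below detection have only bounds.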

Other observations

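Core histone genes, a group picked after their values were seen, were lower at 6 h. Of 42 replication-dependent core histone genes tested, none rose and 18 fell, beside 4.46% and 5.74% of all features. Their median log2 fold change was -0.997, with 38 of 42 lower. Without 6 h replicate 1, none rose and 37 fell, with a median of -1.36. H4c1 had signals of 966.9, 621.3, 231.3 and 239.4 and H3c7 of 209.7, 139.0, 45.2 and 39.7 (0 h replicates 1 and 2, then 6 h replicates 1 and 2), so both 6 h arrays lay below both 0 h arrays. H3c10 did not pass, at 2086.3, 1489.8, 1433.0 and 1259.7. Some H2A genes were lower on 6 h replicate 2 alone, such as H2ac12, with log2 levels of 9.74, 9.87, 9.90 and 7.37. Without 6 h replicate 2, H2ac12, H2ac15, H2ac24 and H2ac7 had log2 changes of 0.10, 0.07, 0.01 and 0.02. Without 6 h replicate 1 their changes were -2.44, -2.58, -1.83 and -1.94. None of the other 5 histone genes tested (the linker histone gene H1f2 and the variants H2az1, H2az2, H3f3a and H3f3b) was called in limma, and 1 of them, H2az2, rose without 6 h replicate 1. Copies of these genes are near identical, so probes may read several of them, and the genes are not independent of each other.

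The features lowest on 6 h replicate 1 relative to 6 h replicate 2 also split the arrays at 24 h. The mitochondrial gene ND5 had signals of 431.1 and 646.0 at 0 h, 166.7 and 1255.4 at 6 h and 1487.3 and 286.4 at 24 h. Frmd8 had signals of 268.1, 309.8, 94.7, 561.1, 682.3 and 158.4 in the same order, and Aktip of 123.0, 116.3, 42.7, 227.7, 282.7 and 74.8. In all 3 the high array was replicate 2 at 6 h and replicate 1 at 24 h. No call rests on these genes.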
